A study of Mus musculus with 3 samples.

Results

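The complement system genes described here are 9 of the 55536 annotated genes in the tables: C1qa, C1qb, C1qc, C3, Cfb, Cfp, C3ar1, C5ar1 and C5ar2. They were chosen by gene symbol, with the library differences of C3 in view, so the spread of C3 between libraries is given as a description with no test. The RNA came from 1 group of mouse bone marrow-derived macrophages of strain C57BL/6J, primary phagocytes, treated with Lipid A at 100 ng/ml for 25 min. Lipid A, the membrane anchor of lipopolysaccharide, is sensed by the receptor TLR4. The RNA was that of the chromatin fraction, which holds much nascent RNA, and it was sequenced as total RNA after depletion of ribosomal RNA. The 3 libraries were labelled biological replicates 1, 2 and 3, with 1000, 250 and 500 ng of starting RNA. All carry the same donor label, no label says that they came from separate animals, and age and sex are not given. Their spread may therefore be technical. No untreated macrophages were analysed here, so the values rank genes within stimulated cells and show no induction.

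Complement is a set of plasma proteins that tag microbes and dying cells for uptake. C1q, built from the A, B and C chains, starts the classical pathway, and every pathway meets at C3, whose large fragment coats surfaces. Factor B and properdin belong to the alternative pathway, in which deposited C3 fragments build the enzyme that cleaves more C3. The small fragments C3a and C5a act on myeloid cells through G protein-coupled receptors. The liver makes most plasma complement, while macrophages are known as a main source of C1q and also make properdin, factor B and C3.

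Total counts on all entries were 13525994, 19230763 and 19207049 in replicates 1, 2 and 3, and a gene with no counts could have had as much as 0.225, 0.157 and 0.157 CPM, a count relative to the library total, by counting error alone. Transcripts of the ribosomal DNA locus took 8.59%, 27.2% and 23.2% of the gene counts. The libraries matched their cell type label: all 10 macrophage markers had at least 10 TPM (counts divided by gene length and scaled to a common total), with Csf1r, the CSF-1 receptor, highest at 535 TPM. Of the neutrophil markers, 3 of 10 reached 1 TPM, with Csf3r at 111 TPM and Ly6g and Elane at 0 counts. None of 8 fibroblast, 6 hepatocyte or 4 B cell markers reached 1 TPM on average. The highest of these were Col3a1 at 0.819, Apoa2 at 0.730 and Cd79a at 0.109 TPM, and Alb, Apoa1, Serpina1a, Fgb and Pax5 were at 0 counts. Among dendritic cell markers 1 of 6 reached 1 TPM, Zbtb46 at 1.95, and among mast cell and basophil markers 1 of 5, Kit at 1.71, while Mcpt8 and Fcer1a were at 0 counts.

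Levels spanned more than 2 orders of magnitude on the TPM scale, which divides counts by gene length. In order of the mean over 3 libraries, Cfp stood at 151 TPM, C1qb at 103, C1qc at 86.5, C5ar1 at 81.3, C3ar1 at 67.4, C3 at 14.0, C1qa at 9.80, C5ar2 at 3.46 and Cfb at 0.778. The ranges over libraries did not overlap between Cfp and C1qb, C3ar1 and C3, C1qa and C5ar2, or C5ar2 and Cfb. The other neighbours in this order, C1qb and C1qc, C1qc and C5ar1, C5ar1 and C3ar1, and C3 and C1qa, had overlapping ranges. Within libraries, C1qb was above C1qc in all 3, while in each of the other pairs the order held in 2 of 3. Among 21898 protein-coding genes of at least 300 nt, 96.6% had a lower mean than Cfp, 72.7% a lower mean than C3 and 48.1% a lower mean than Cfb. Among the 9 genes, 8 reached 1 TPM and 6 reached 10 TPM. Of the 21898 protein-coding genes, 50.5% had 1 TPM or more and 6879 had 10 TPM or more.

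**Figure D1:**
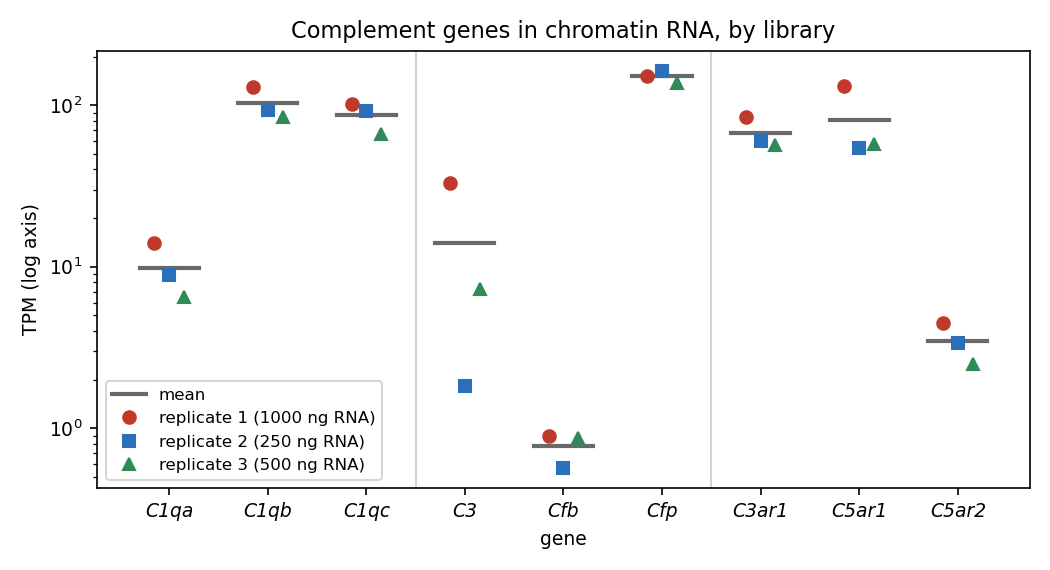
Level of each complement gene in TPM on a log axis, with 1 symbol per library and a bar at the mean of 3 libraries. Grey lines separate the C1q chains, the genes of C3 and the alternative pathway, and the receptors. C3 is spread from 1.84 to 33.0 TPM, while Cfp lies between 136 and 164 TPM.

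The promoters of C3, C5ar1 and C3ar1 are shown, because C3 and C5ar1 were the members highest in replicate 1 by the largest margins, and C3ar1 is a receptor whose 3 libraries lay close together. The sequences are RefSeq's on build GRCm38.p6, from 250 bases before to 50 bases after the annotated start, on the minus strand and written 5′ to 3′. They lie at chr17:57228087-57228386 for C3, chr7:16259289-16259588 for C5ar1 and chr6:122856108-122856407 for C3ar1. Capitals mark matches to 6 short motifs, searched on both strands.
C3: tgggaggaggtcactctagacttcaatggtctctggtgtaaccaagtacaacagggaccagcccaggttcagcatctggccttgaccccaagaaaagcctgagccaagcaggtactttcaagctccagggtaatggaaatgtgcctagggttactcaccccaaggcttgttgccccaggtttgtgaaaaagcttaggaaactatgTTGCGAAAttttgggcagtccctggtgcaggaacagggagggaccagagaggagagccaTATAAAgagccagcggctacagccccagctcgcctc
C5ar1: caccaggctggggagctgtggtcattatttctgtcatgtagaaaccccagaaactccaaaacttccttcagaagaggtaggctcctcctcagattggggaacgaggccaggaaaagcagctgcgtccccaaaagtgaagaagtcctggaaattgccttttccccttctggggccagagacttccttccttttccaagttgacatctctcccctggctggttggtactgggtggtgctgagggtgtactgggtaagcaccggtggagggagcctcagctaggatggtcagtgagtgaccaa
C3ar1: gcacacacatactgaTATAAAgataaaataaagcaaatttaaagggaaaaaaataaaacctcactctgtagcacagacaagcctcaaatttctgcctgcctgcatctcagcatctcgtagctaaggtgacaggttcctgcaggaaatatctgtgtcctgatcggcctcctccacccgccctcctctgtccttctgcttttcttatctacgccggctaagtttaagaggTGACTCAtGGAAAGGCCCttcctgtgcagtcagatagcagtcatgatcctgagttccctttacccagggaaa

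The motifs were chosen with the C3 sequence in view. The C3 window held TTGCGAAA, which matches the C/EBP motif TTGCNNAA, 45 bases before the annotated start, and TATAAA beginning at base 15 of the annotated gene. The C/EBP motif was in 10.8% and the TATA box motif TATAAA in 13.6% of 32851 promoter windows. The C3ar1 window held the AP-1 motif TGANTCA as TGACTCA, found in 7.81% of windows, and next to it GGAAAGGCCC, a match on the opposite strand to the NF-kB motif GGGNNNTTCC, found in 5.56%. It also held TATAAA 235 bases before the start. The C5ar1 window held none of the 6 motifs. It is set on RefSeq's start, and most of it lies inside the gene as counted, which starts at chr7:16259540 on the minus strand. Few bases before that start were therefore searched. The remaining motifs were the PU.1 motif GAGGAAG, in 13.6% of windows, and the interferon-stimulated response element GAAANNGAAA, in 3.44%. Of the other members with an entry, C1qc had a PU.1 match, C5ar2 had 2 C/EBP matches in 1 of its 2 windows and a PU.1 match in the other, and C1qb and Cfp had none. C1qa and Cfb were not matched to an entry. A match is a stretch of letters and not a measured binding site.

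The genes of the 3 C1q chains lie next to each other on chromosome 4 (mm10), in the order C1qa at chr4:136895917-136898803, C1qc at chr4:136889804-136893065 and C1qb at chr4:136880129-136886187. All are on the minus strand, with 2851 bases between C1qa and C1qc and 3616 between C1qc and C1qb. C1qb had 130, 93.3 and 84.6 TPM in replicates 1, 2 and 3, from 664, 724 and 626 counts. C1qc had 102, 91.6 and 66.5 TPM, from 489, 653 and 477 counts. C1qa had 14.1, 8.89 and 6.45 TPM, from 68, 65 and 45 counts. Replicate 1 was highest and replicate 3 lowest for each chain on this scale, and C1qa lay below the other chains in every library. The median gene was higher in replicate 1 than in replicates 2 and 3 by 0.34 and 0.24 on the log2 (TPM + 1) scale, and by −0.02 and −0.03 on the log2 (CPM + 1) scale, so library differences are read on the CPM scale.

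Within each library the C chain stood at 0.782, 0.982 and 0.786 times the level of the B chain, a mean of 0.850 ± 0.114 (SD, n = 3). The A chain stood at 0.108, 0.0952 and 0.0762 times the B chain, a mean of 0.0932 ± 0.0161 (SD, n = 3). The 3 chains occur in equal numbers in the C1q protein, and the A chain gene was an order of magnitude under its neighbours in this RNA. The kallisto-type table gave the A chain at 0.0618 ± 0.00910 and the C chain at 0.416 ± 0.0401 of the B chain (SD, n = 3). The low A chain level was thus in both quantifications, whereas the C chain lay close to the B chain in the RSEM-type table only. After scaling for library composition, C1qb had 44.7, 40.7 and 34.0 CPM, C1qc 32.9, 36.7 and 25.9 CPM, and C1qa 4.57, 3.65 and 2.45 CPM. Replicate 3 was lowest for all 3 chains on this scale too, and replicate 2 was highest for C1qc.

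C1qc had a second transcript, C1qc-202, which is annotated as a processed transcript and not as protein coding. It took 57.7%, 64.5% and 47.1% of the gene's counts in replicates 1, 2 and 3. Its share in the kallisto-type table was 49.5%, 56.6% and 42.6%. C1qa and C1qb each have 1 annotated transcript. Both tables thus put a large share of C1qc on the noncoding form, with replicate 2 highest and replicate 3 lowest in each.

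C3, the central component, had 33.0, 1.84 and 7.29 TPM in replicates 1, 2 and 3, from 523, 78 and 181 counts. It lies at chr17:57203970-57228136 on the minus strand. On the CPM scale it had 35.2, 4.38 and 9.83, so that replicate 1 was highest, replicate 3 intermediate and replicate 2 lowest on both scales. Replicate 1 had 8.02 times the CPM of replicate 2, with a 95% exact interval of 6.31 to 10.3 for counting error only. It had 3.58 times the CPM of replicate 3 (3.02 to 4.26), and replicate 3 had 2.24 times that of replicate 2 (1.71 to 2.96). These ratios are the values C3 was chosen on and carry no test. The mean level, 14.0 ± 16.7 TPM (SD, n = 3), rests on replicate 1 and was 4.57 TPM without it.

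The range of C3 over the libraries was 2.75 on the log2 (CPM + 1) scale. It was larger than that of 99.9% of 8786 genes with a mean of at least 100 counts. Between replicates 1 and 2 the log2 ratios of these genes had their 5th and 95th percentiles at −0.93 and 1.00, and 5 genes, C3 included, had a ratio at or above that of C3. The order of the libraries for C3 followed the labelled RNA amount. Each amount is 1 library, so amount and library cannot be told apart, nor can fewer cells making a transcript and less transcript per cell.

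**Figure D2:**
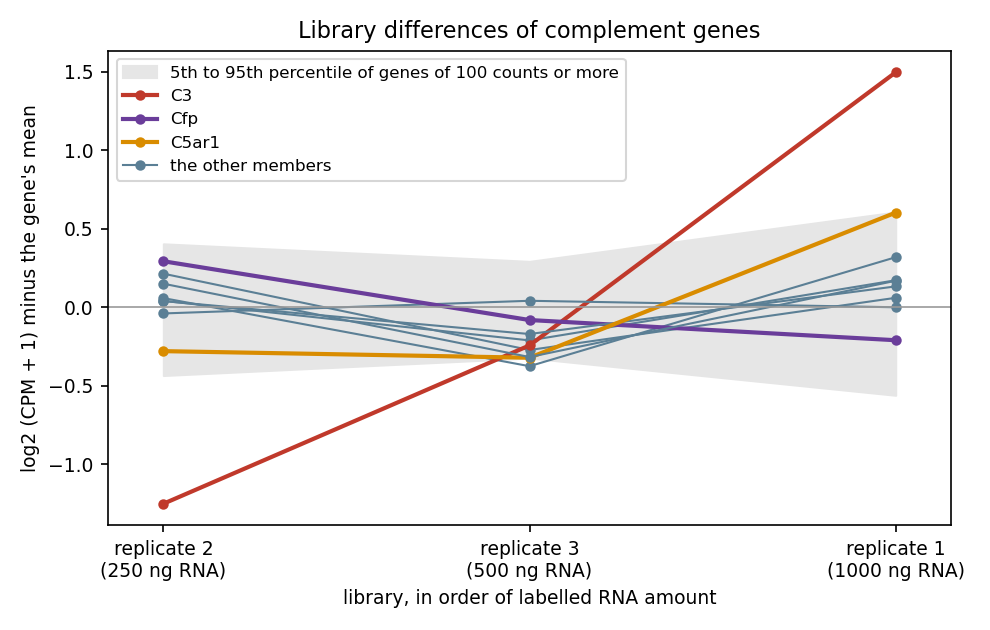
Difference of each complement gene from its own mean, in log2 (CPM + 1), for the 3 libraries in order of labelled RNA amount. The shaded band runs from the 5th to the 95th percentile of 8786 genes with a mean of at least 100 counts. C3 runs from −1.25 in replicate 2 to 1.50 in replicate 1, outside the band at both ends. C5ar1 is at 0.60 in replicate 1, and the other members lie between −0.38 and 0.32. C1qa, at −0.38 in replicate 3, is also outside the band, whose lower edge there is −0.32. With 68, 65 and 45 counts in replicates 1, 2 and 3, C1qa is under the 100-count limit of the band's genes. Its relative counting error is therefore larger than theirs.

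Other measures also differed between the libraries. The share of ribosomal DNA locus transcripts was lowest in replicate 1, where C3 was highest, and highest in replicate 2, where C3 was lowest. Its part in the C3 difference was not tested. The 8 fibroblast markers summed to 0.0788, 2.06 and 4.72 TPM in replicates 1, 2 and 3, lowest in the library with the most C3. The 6 hepatocyte markers summed to 1.30, 0.438 and 0.815 TPM, in the same order as C3 on this scale. These sums rest on at most 3 counts of any gene in a library, with 4 of the 6 at 0 counts in all of them. The genes with counts were Apoa2, at 0.135, 0.0562 and 0.0543 CPM, and Ttr, at 0, 0 and 0.163 CPM. The 10 macrophage markers summed to 2618, 1838 and 2201 TPM, highest in replicate 1 and lowest in replicate 2, on a scale that runs high in replicate 1. On the CPM scale these markers had no common order. Csf1r had 820, 727 and 820 CPM, Mertk 490, 586 and 535, and Lyz2 268, 168 and 176. This was not tested. Mast cell and basophil markers summed to 3.14, 0.916 and 1.81 TPM and B cell markers to 0.334, 0 and 0.188 TPM, in the order of C3 on this scale. Kit, however, had 0.874, 1.52 and 1.90 CPM, lowest in replicate 1, from 13, 27 and 35 counts. Cpa3, at 4 counts, and Ms4a2, at 1, had counts in replicate 1 only. The B cell sums rest on at most 3 counts of any gene in a library. The part of these markers was not tested. Neutrophil markers summed to 121, 97.1 and 129 TPM and dendritic cell markers to 4.27, 3.96 and 2.78 TPM, in other orders.

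C3 has 4 annotated transcripts, and most of its counts were on C3-201, the full-length coding form of 5136 nt, with 480, 77.6 and 169 counts. C3-202, a processed transcript of 662 nt, had 42.9, 0.44 and 12.3 counts, or 8.21%, 0.564% and 6.81% of the gene's counts. By TPM, which gives short transcripts more weight, the RSEM-type share of C3-202 averaged 33.6 ± 24.1% (SD, n = 3), against 5.20% by counts. The kallisto-type table put 78.9, 0 and 13.8 counts on it, so both tables had it highest in replicate 1 and lowest in replicate 2. The deposited effective length of the gene was 2732, 4612 and 2843 bases. With that length set to its mean over the libraries, C3 had 26.1, 2.56 and 6.17 TPM. The TPM ratio of replicate 1 to replicate 2 was 18.0 with the deposited lengths, against a CPM ratio of 8.02 and a CPM ratio of 5.35 in the kallisto-type table. The direction was the same in each case, and the size depended on the scale.

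The 5 genes most like C3 across the libraries were Gbp2, Arl5c, Gm44751, A630081D01Rik and Cxcl10, by Euclidean distance of centred log2 (CPM + 1) among 7964 genes with at least 100 counts in each library. Their distances from C3 ran from 0.171 for Gbp2 to 0.293 for Cxcl10, and 16 genes lay within 0.5. Gbp2, a guanylate-binding protein gene, had 67.0, 11.0 and 21.2 CPM in replicates 1, 2 and 3. Cxcl10, which encodes a chemokine, had 60.4, 11.2 and 20.2 CPM. Likeness over 3 libraries rests on very few points and is a description only.

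Cfp, which encodes properdin, the stabiliser of the alternative pathway convertase, had 152, 164 and 136 TPM in replicates 1, 2 and 3, from 909, 1549 and 1232 counts. It lies at chrX:20925454-20931555 on the minus strand. Its mean of 151 ± 13.7 TPM (SD, n = 3) made it the highest of the 9 genes in every library. On the CPM scale it had 61.1, 87.1 and 66.9, with replicate 2 highest and replicate 1 lowest. Replicate 1 was under replicate 3 by 0.13 on the log2 (CPM + 1) scale, but above it by 0.16 on the log2 (TPM + 1) scale and by 0.08 with library size alone. Between replicates 1 and 2, by contrast, Cfp was lower in replicate 1 on each of these scales, while C3 was higher. The share of counts on Cfp-202, a processed transcript of 401 nt, was 6.25%, 4.68% and 4.74%. By TPM its RSEM-type share averaged 30.5 ± 1.72% (SD, n = 3).

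Cfb encodes factor B, the serine protease of the alternative pathway, at chr17:34856374-34862518 on the minus strand. It had 0.894, 0.567 and 0.874 TPM, from 9, 10 and 12 counts, and was the lowest of the 9 genes in every library. Its library ratios had wide counting intervals: replicate 1 to replicate 2 was 1.08 (0.387 to 2.95) on the CPM scale. These counts were spread over several of its 8 annotated transcripts. A change in Cfb was not detectable at this depth. The neighbouring gene C2, which encodes the protease of the classical pathway and ends 85 bases before Cfb, had 0.434 ± 0.300 TPM (SD, n = 3), and the kallisto-type table had 21.9 TPM for C2 and 2.85 ± 0.652 TPM for Cfb (SD, n = 3). A gene named Gm20547 overlaps part of both on the same strand and had 0 counts in the RSEM-type gene table. The other genes overlapping members, Mir6972 in Cfb, Mir6978 in C3 and Gm26473 in C5ar2, also had 0 counts.

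C5ar1, the main receptor for C5a, had 132, 54.5 and 57.7 TPM in replicates 1, 2 and 3, from 1744, 1124 and 1129 counts. On the CPM scale it had 117, 63.2 and 61.3, so replicate 1 stood apart and the other two libraries were close. Replicate 1 had 1.86 times the CPM of replicate 2 (1.72 to 2.00) and 1.91 times that of replicate 3 (1.77 to 2.06), while replicate 3 had 0.971 times that of replicate 2 (0.893 to 1.06). The range of C5ar1, 0.92 on the log2 (CPM + 1) scale, was larger than that of 86.7% of the 8786 genes. C5ar1 was thus the second most variable of the 9 genes on that scale, at a far smaller range than C3, and its 2 lower libraries did not follow the RNA amount.

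C5ar2, a second C5a receptor that does not couple to G proteins, had 4.50, 3.39 and 2.48 TPM, from 84, 99 and 69 counts. It is the neighbour of C5ar1 on chromosome 7, with C5ar1 at chr7:16246743-16259540 and C5ar2 at chr7:16234585-16244154, both on the minus strand and 2588 bases apart. Its level was 0.0342, 0.0622 and 0.0430 times that of C5ar1 within the libraries, a mean of 0.0465 ± 0.0143 (SD, n = 3), and 0.0703 ± 0.0222 in the kallisto-type table. C5ar2 had 5.65, 5.57 and 3.75 CPM, so replicates 1 and 2 were close and replicate 3 was lower. This pattern differed from that of C5ar1, in which replicate 1 stood alone. The kallisto-type table had no such drop, with a CPM ratio of replicate 1 to replicate 3 of 0.979 against 1.51.

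C3ar1, the receptor for C3a, had 84.8, 60.4 and 56.9 TPM, from 2016, 2260 and 2019 counts, the most counts of the 9 genes in every library. It lies at chr6:122847138-122856161 on the minus strand. On the CPM scale it had 136, 127 and 110, with a log2 range of 0.30 that was larger than that of 30.2% of genes. Its level was 0.644, 1.11 and 0.987 times that of C5ar1, so C5ar1 was above C3ar1 in replicates 1 and 3 and below it in replicate 2. In the kallisto-type table the ratio was 0.476 ± 0.110 (SD, n = 3). The receptor for C3a thus varied little over libraries in which C3 itself varied 8.02-fold.

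Change with RNA amount was fitted across all genes with edgeR's quasi-likelihood test, with 1 residual degree of freedom. Of 15077 genes tested, 4.38% were called at an adjusted p under 0.05, 2.98% higher and 1.41% lower with more RNA. Aside from C3, all 8 members were tested and 0 of 8 were called, by edgeR or by DESeq2. In edgeR, 1 of the 8 had an unadjusted p under 0.05, beside 3236 of the 15077 genes tested, a larger share. DESeq2 gave no adjusted p for C1qa, Cfb and C5ar2. The median fitted log2 change of the 8 genes was 0.05 per doubling, beside −0.01 over all genes tested.

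The member at an unadjusted p under 0.05 was C5ar1, with a log2 change of 0.45 (SE 0.14) per doubling and an adjusted p of 0.0781 in edgeR. Under other filters on low counts edgeR called it, at an adjusted p of 0.0455 with no filter and 0.0324 with the filter applied over the libraries as 1 group, and over all alternatives the adjusted p ran from 0.0324 to 0.145. Without replicate 1 its log2 change was −0.04 and without replicate 2 it was 0.92, each from 2 libraries and with no test. Cfp had a log2 change of −0.26 (SE 0.13) and an adjusted p of 0.282 in edgeR. The C1q chains had log2 changes of 0.16 (SE 0.24) for C1qa, 0.07 (SE 0.14) for C1qb and −0.08 (SE 0.15) for C1qc, with edgeR adjusted p of 0.734, 0.821 and 0.793. C3ar1 had 0.05 (SE 0.13), C5ar2 0.01 (SE 0.21) and Cfb 0.05 (SE 0.41), with edgeR adjusted p of 0.867, 0.988 and 0.955. Leaving out 1 library turned the sign of several of these small changes, with 2 libraries left and no test. Without replicate 1 the log2 change was −0.43 for C1qa, −0.25 for C1qb, −0.21 for C3ar1 and −0.47 for C5ar2. Without replicate 2 it was 0.33 for C1qc and −0.04 for Cfb, while Cfp stayed negative without any 1 library. No direction with RNA amount is therefore read for these genes. For Cfb the standard error would allow a large change in either direction.

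Levels from the other deposited quantification were compared gene by gene. The kallisto-type counts of genes with a mean of at least 100 counts were 1.50, 1.61 and 1.55 times the RSEM-type counts at the median in replicates 1, 2 and 3. For C3 this ratio was 3.40, 5.35 and 4.08, and for C1qb 2.48, 3.89 and 3.24, above the 90th percentile of 2.30, 2.46 and 2.36 in every library. C5ar2, at 2.80, 3.49 and 4.37, and Cfb, at 6.00, 5.20 and 5.96, also exceeded it. These 2 genes had a mean under 100 counts, unlike the genes of the percentile. For C3ar1 the ratio was 1.17, 1.28 and 1.25, below the median. In the kallisto-type table the order of mean TPM was Cfp at 161, C1qb at 156, C5ar1 at 93.6, C1qc at 65.3, C3ar1 at 41.4, C3 at 28.3, C1qa at 9.61, C5ar2 at 5.94 and Cfb at 2.85. C1qc and C5ar1 changed places, and the others kept their rank. C3 had 55.0, 7.91 and 21.8 TPM there, in the same order of libraries.

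**Figure D3:**
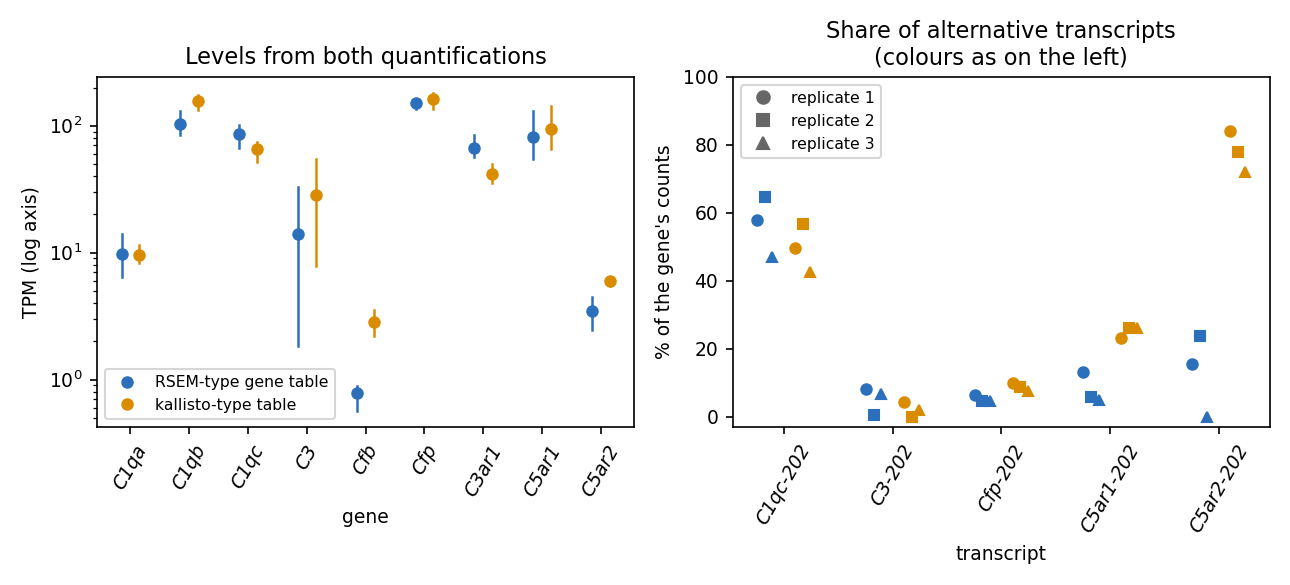
Left, mean level of each gene in TPM on a log axis from the RSEM-type and kallisto-type tables, with a line from the lowest to the highest of 3 libraries. Right, percent of the gene's counts on 1 alternative transcript of each of 5 genes, by library, in the same colours. Cfb is higher in the kallisto-type table, at 2.85 against 0.778 TPM, and the largest disagreement on the right is for C5ar2-202.

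The tables also disagreed on the transcripts of the C5a receptors. C5ar2-202 had 15.4%, 23.9% and 0% of C5ar2 counts in the RSEM-type table and 84.0%, 77.8% and 72.0% in the kallisto-type table. C5ar1-202 had 13.2%, 5.65% and 4.81% against 23.3%, 26.1% and 26.0%. All transcripts of both genes are annotated as protein coding. The split of counts within these genes therefore depended on the quantification, more than on the library for C5ar2.

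A wider list of 52 other complement genes was described in the same way. Of these, 16 reached 1 TPM, 9 reached 10 TPM and 2 reached 100 TPM, and 19 had no counts in any library. Their median was 0.0982 TPM, beside 1.09 TPM over the protein-coding genes. Of the 21898 protein-coding genes, 11060 reached 1 TPM, 6879 reached 10 TPM and 1275 reached 100 TPM, and 6700 had no counts. From kallisto-type values, 26 of the 52 reached 1 TPM. Counts were concentrated in receptors and binding proteins rather than plasma components.

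Among C1r, C1s, the MASP proteases and the lectins, which act with or beside C1q, 1 of 13 genes reached 1 TPM. This was Colec12, a collectin-type scavenger receptor, at 10.8 ± 4.60 TPM, followed by C1ra, a C1r protease gene, at 0.672 ± 0.186 (SD, n = 3), and 5 had no counts. Among C2, C4 and factor D genes, C4a was highest at 4.17 ± 1.43 TPM and C4b next at 0.830 ± 0.516 (SD, n = 3). C4a and C4b are near-identical copies, so their split rests on how shared reads were assigned. The deposited SD of this assignment was 0.84, 0.36 and 0 counts in replicates 1, 2 and 3 for each gene. The kallisto-type table also had C4a higher, at a mean of 3.01 TPM against 0.376 for C4b. Among the terminal components, which form the membrane attack complex, 6 of 7 had no counts in the RSEM-type table, and the remaining gene, C8g, stood at 1.18 ± 0.139 TPM (SD, n = 3). The kallisto-type table had 6.47 TPM for C8g, 31, 38 and 37 counts for C6 and 33, 36 and 38 counts for C8a, and it had none for C7 and C8b. The gene of C5, named Hc in mouse, had no counts in the RSEM-type table and 1, 0 and 20 in the kallisto-type table, while both C5a receptors were detected in both.

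Among soluble regulators, 6 of 11 had no counts, and Vtn, the vitronectin gene, stood at 0.122 TPM from 1 count in replicate 1. Among membrane regulators 3 of 8 reached 1 TPM. Cr1l, known as Crry, which restrains C3 cleavage on mouse cells, had 59.1, 28.3 and 41.1 TPM. Cd46, the membrane cofactor protein gene, had 17.6, 7.17 and 8.37 TPM. Cd55, decay-accelerating factor, named here after its values were seen, had 2.49, 0.554 and 0.651 TPM, from 25, 7 and 9 counts. Its CPM ratio of replicate 1 to replicate 2 was 4.27, but 1.36 in the kallisto-type table. All 3 of these regulators were highest in replicate 1 on the TPM scale, as C3 was, a scale on which the median gene was too. Cr1l had a log2 change of 0.44 (SE 0.14) and Cd46 of 0.43 (SE 0.16) per doubling, with edgeR adjusted p of 0.0821 and 0.134, and Cd55 did not pass the filter on low counts.

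All 9 other receptors and C1q-binding genes reached a mean of 1 TPM, Vsig4, a phagocyte receptor for C3 fragments, only through replicate 1: it had 1.69, 0.366 and 1.15 TPM, and a mean of 0.760 without that library. Lrp1, an endocytic receptor that binds C1q-tagged material, had 430, 853 and 694 TPM in replicates 1, 2 and 3, the highest of the 52. Calr, the calreticulin gene, had 133, 132 and 130 TPM. On the CPM scale it had 48.4, 65.8 and 61.6, lower in replicate 1, at 0.736 times replicate 2 (0.670 to 0.808). Of the 52 genes, 16 passed the filter on low counts and 1 was called by edgeR, in the lower direction, beside the 1.41% of all genes given above. This was Lrp1, which fell by 0.76 (SE 0.14) on the log2 scale per doubling of RNA amount, with an edgeR adjusted p of 0.00458. The order of its libraries was the reverse of that of C3. Cr2, complement receptor 2, had 3.94, 0.839 and 1.26 TPM and a log2 change of 0.84 (SE 0.24), with an edgeR adjusted p of 0.0566. It was called with no filter (edgeR adjusted p 0.0139) and with the filter over 1 group (edgeR adjusted p 0.0320).

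**Figure D4:**
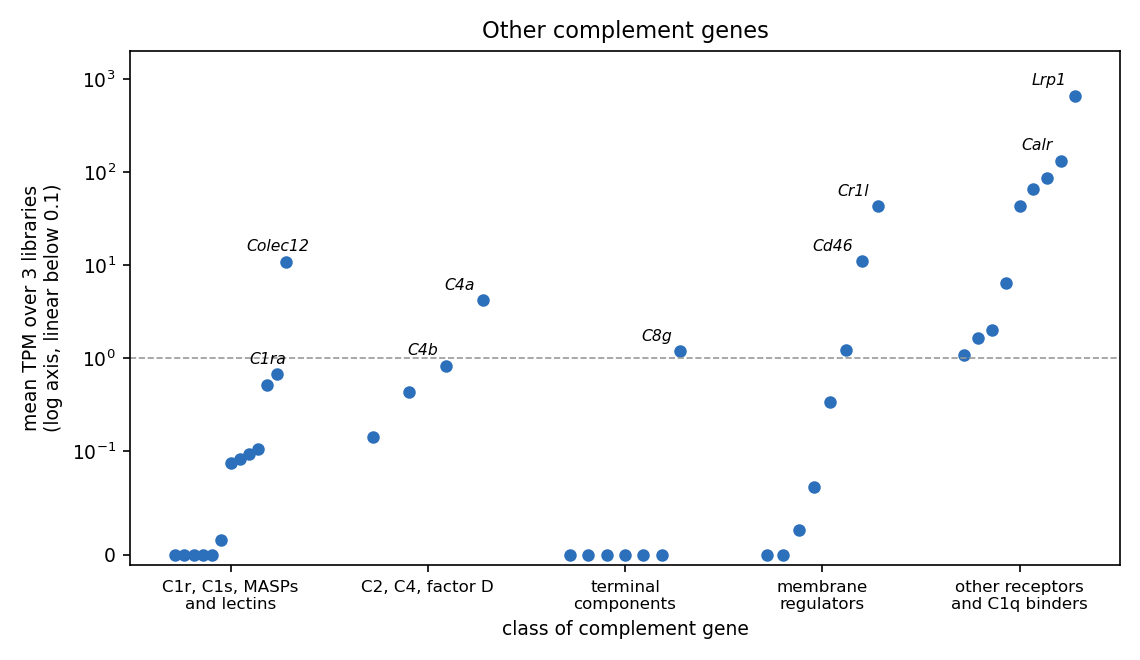
Mean TPM over 3 libraries of the wider complement list by class, for 5 classes without the soluble regulators, on an axis that is logarithmic above 0.1 and linear below it, with 1 point per gene and the names of up to 2 highest genes with counts in each class. The dashed line marks 1 TPM. All 9 receptors and C1q-binding genes lie above the line, and 6 of 7 terminal component genes lie at 0 in these RSEM-type values.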

How the data were processed

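Total RNA-seq of the chromatin fraction was taken as the authors deposited it. Per the file headers, each library has a gene table and a transcript table in RSEM's column names, holding expected counts and TPM, and a transcript table in kallisto's, holding estimated counts and TPM. They refer to mm10 and GENCODE M21, per the deposited readme files; for the aligner, versions and strand setting, the sources used here give nothing.

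Expected counts were divided by deposited effective length, then scaled to TPM over genes of 300 nt or longer, leaving out tRNA and spike-in entries (1.53%, 0.357% and 0.308% of counts in replicates 1, 2 and 3). The entries left out held 67.1%, 62.1% and 61.7% of deposited TPM. CPM used TMM factors (1.12, 0.930 and 0.962) and a pseudocount of 1 on the log scale. Exact 95% intervals and limits for no counts (3 counts) cover counting error only. The change with RNA amount was tested with edgeR 4.0.16 in R 4.3.3 (quasi-likelihood, filterByExpr with the design, Benjamini-Hochberg over all genes) on counts rounded to whole numbers; DESeq2 1.42.0 was an alternative. Counts were simulated for the RNA amount comparison, with changes of 0.5 or 1 log2 units per doubling of RNA. At a dispersion of 0.02, edgeR recovered 62 of 200 genes changed by 0.5 per doubling among 15067 tested. It recovered 199 of 200 changed by 1 per doubling among 15104. At a dispersion of 0.1 it recovered 0 of 200 among 14924 and 20 of 200 among 15091. False calls in these 4 runs, in the order given, numbered 6, 8, 0 and 2. Other steps used Python 3.11.15, pandas 2.3.3, numpy 2.4.6 and scipy 1.17.1.

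The members, lists, markers and motifs were chosen with earlier results of these data known. Genes named beyond the members were the 2 highest of each class of the wider list and those called, the 5 most like C3, overlapping genes, and the highest and zero-count markers. C2, Hc, C6, C7, C8a, C8b, Vsig4, Cr2, Cd55 and Cfb's neighbours were added after their values were seen, and so were averaged effective lengths, TPM ratios and the filter over 1 group. Tf, a marker, was not found under that name in the annotation. The samples form 1 group. Some genes that the naming rule picks are not reported here.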

Additional observations from a re-analysis of the deposited data

How the results depend on the processing

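The number of genes called for a change with RNA amount was 661, and 362 with DESeq2, 1101 with the filter over 1 group and 1181 with no filter on low counts. Members other than C3 called were 0, and 1 (C5ar1) with the filter over 1 group and 1 with no filter. Wider-list genes called were 1, and 2 (Lrp1 and Cr2) with each of these filters. Wider-list genes at 1 TPM or more were 16, and 26 in the kallisto-type table. Their causes were not tested. With kallisto-type counts the log2 change per doubling turned negative for C1qa (−0.0121), C1qb (−0.23) and C5ar2 (−0.11), and the log2 ratio of replicate 1 to replicate 3 for C5ar2 (−0.0276). The log2 ratio of replicate 1 to replicate 3 for Cfp was 0.0838 with library size only and 0.156 on the TPM scale. C3 kept its direction in every alternative run. The mean share on transcripts not annotated as protein coding was 5.20% of counts for C3 and 5.22% for Cfp. By TPM these shares were 33.6% and 30.5%. In kallisto-type counts the share was 8.75% for Cfp, and 8.35% for Cfb against 0% in RSEM-type counts. Leaving out 1 library turned the sign of the small log2 changes of 7 members, given with their tests: C1qa, C1qb, C1qc, C3ar1, C5ar1, C5ar2 and Cfb. The median gene's log2 ratio of replicate 1 to replicate 2 was −0.02 with TMM factors, 0.23 with library size only and 0.34 on the TPM scale, so TPM ratios of replicate 1 run high. Without 1 replicate, wider-list genes at 1 TPM or more ranged from 14 to 16. No paired analysis was possible because the libraries form 1 group. Counts under about 10, as for Cfb, limit what can be seen.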
